A study of Mus musculus with 4 samples.

Results

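Death receptors, the PIDDosome and the caspases they switch on were examined in mouse embryonic fibroblasts, cells cultured from embryos, of 2 genotypes. The 9 genes were taken by symbol: Fas, Tnfrsf10b, Pidd1, Apaf1, Casp2, Casp8, Casp9, Fadd and Perp. They are 9 of 18193 genes with a symbol on the array. They were measured by 14 probe sets, short groups of oligonucleotide probes for one transcript, of 34945 tied to 1 gene symbol. Each of the 14 is described separately. The 4 arrays held RNA of irradiated cells labelled Wip1-/-, unirradiated cells labelled Wip1-/-, irradiated Wip1+/+ cells and unirradiated Wip1+/+ cells, with 1 array per group. Irradiated cells were harvested 4 h after 5 Gy of gamma radiation, and unirradiated cells are labelled 0 h, so radiation and 4 h of culture cannot be told apart. Wip1 is the phosphatase encoded by Ppm1d, which removes phosphates from p53 and from damage-activated kinases. The series text gives p53 target genes as the subject of the arrays. No test was run, since each group is a single array, and the spread between cultures is unknown. The error given in its place is the standard deviation (SD) of the log2 ratio among the probe sets of a gene, pooled over genes. It pools dim and bright probe sets, and was smaller among those with a mean signal of at least 500. It shows how far probes disagree within a pair of arrays and leaves out what separates cultures.

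Cells can start apoptosis from the membrane or from within. On the membrane, Fas and the TRAIL receptor encoded by Tnfrsf10b bind their ligands and recruit the adaptor Fadd, which gathers and activates the initiator caspase Casp8. From within, cytochrome c released by mitochondria assembles Apaf1 into the apoptosome, which activates Casp9, while Pidd1 and the adaptor Cradd assemble the PIDDosome, which activates Casp2. Fas, Tnfrsf10b, Pidd1, Apaf1 and Perp, a membrane protein of desmosomes, are known targets of p53.

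The promoter table of RefSeq, build GRCm38.p6, held 7 of the 9 genes and none of Tnfrsf10b or Perp. Each window runs from 250 bases before to 50 after a transcript start. The windows of Fas, Pidd1 and Apaf1 are shown because these genes had the highest ratios after irradiation of Wip1+/+ cells, and that of Casp8 because its signal varied least over the 4 arrays. Capitals mark GGGCGG on either strand and, in Fas, 1 match to TTCNNNGAA.
Fas, chr19:34290409-34290708, plus strand: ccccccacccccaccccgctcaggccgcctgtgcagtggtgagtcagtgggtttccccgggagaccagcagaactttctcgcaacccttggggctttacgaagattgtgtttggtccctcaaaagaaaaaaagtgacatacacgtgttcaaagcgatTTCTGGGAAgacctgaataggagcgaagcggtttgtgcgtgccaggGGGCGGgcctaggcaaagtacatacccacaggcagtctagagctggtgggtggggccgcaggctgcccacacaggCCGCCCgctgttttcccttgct
Pidd1, chr7:141443976-141444275, minus strand: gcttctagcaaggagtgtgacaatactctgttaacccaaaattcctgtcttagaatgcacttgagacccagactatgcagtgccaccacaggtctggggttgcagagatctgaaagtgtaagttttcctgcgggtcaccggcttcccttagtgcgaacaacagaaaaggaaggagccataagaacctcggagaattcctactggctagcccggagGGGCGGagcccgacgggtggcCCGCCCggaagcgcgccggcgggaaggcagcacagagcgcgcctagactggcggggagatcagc
Apaf1, chr10:91082694-91082993, minus strand: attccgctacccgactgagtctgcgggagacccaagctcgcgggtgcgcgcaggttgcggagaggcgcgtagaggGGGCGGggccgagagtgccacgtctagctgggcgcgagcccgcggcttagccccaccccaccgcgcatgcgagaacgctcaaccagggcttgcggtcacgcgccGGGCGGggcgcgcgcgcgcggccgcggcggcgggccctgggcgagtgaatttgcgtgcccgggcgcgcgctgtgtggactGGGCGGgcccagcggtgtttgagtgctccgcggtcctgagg
Casp8, chr1:58802252-58802551, plus strand: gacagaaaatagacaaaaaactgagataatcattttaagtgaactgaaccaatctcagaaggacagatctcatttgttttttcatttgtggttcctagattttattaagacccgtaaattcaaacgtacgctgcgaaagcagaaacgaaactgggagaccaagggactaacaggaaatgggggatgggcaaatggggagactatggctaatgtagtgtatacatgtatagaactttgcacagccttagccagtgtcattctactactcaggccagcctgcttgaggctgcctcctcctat

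These windows differ most in base composition. The Apaf1 window held 74.7% G and C and 46 CpG dinucleotides, the Pidd1 window 57.7% and 17, and the Fas window 59.0% and 14. That of Casp8 held 42.0% and 5, against medians of 52.7% and 7 over 32851 windows. GGGCGG, searched on both strands, was found in 6 of the 7 windows and not in that of Casp8, and 35.7% of all windows hold it. CCAAT was found in those of Casp2 and Casp8, against 37.4% of all. The match to TTCNNNGAA in Fas began 93 bases before the start, and 8.30% of all windows hold one. None of the 7 held TATAAA or the consensus of the p53 half-site, which 13.6% and 8.36% of all windows hold. The windows of Pidd1 and Casp8 belong to starts 3540 and 7269 bases inside the annotated genes, so other starts of these genes, and introns, were not searched.

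The array of unirradiated cells labelled Wip1-/- stood apart from the other 3. Over 18 spike-in hybridization controls log2 ratios had an SD of 0.44 to 0.47 where this array was one of the pair and of 0.07 to 0.10 elsewhere. Ppm1d signal did not follow the labels: one probe set read 482 irradiated and 504 unirradiated there, against 364 and 375 in Wip1+/+ cells, and the other 561 and 219, against 463 and 317. No source used here places these probes relative to the deletion, so the cells are called labelled Wip1-/- throughout. All 12 fibroblast markers were above the floor, a signal of 46.5 under which values were not told apart, on the 4 arrays. Of the 16 macrophage markers, 15 passed the filter on dim probe sets and all 15 were lower in cells labelled Wip1-/- under both conditions. Their 16 signals summed to 2497 irradiated and 2934 unirradiated there, against 10673 and 10656 in Wip1+/+ cells, with Itgam under the floor on all arrays. The summed signal of 12 interferon-stimulated genes was 2452 and 2216, against 7790 and 8188. Of the 10 that passed the filter, 9 were lower in cells labelled Wip1-/- and 1, Irf1, was higher under each condition. In such bulk RNA, fewer cells of a type and less RNA per cell cannot be told apart.

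Pidd1 was at least 2-fold higher after irradiation in both genotypes, and both probe sets of Apaf1 and that of Fas were 1.80- to 1.97-fold higher in Wip1+/+ cells. Tnfrsf10b, Fadd and the caspases showed no common direction. In Wip1+/+ cells 8 of the 13 probe sets that passed the filter were above 1 as a ratio and 5 were below, and the median log2 ratio was 0.28, against 49.7% above 1 over 20323 probe sets and a median of 0.00 over the 20267 with a ratio. In cells labelled Wip1-/- 9 were above and 4 below, with a median of 0.14, against 48.8% above 1 and a median of -0.02 over 20270. With 1 value per gene, the median over its probe sets, the medians were 0.32 in cells labelled Wip1-/- and 0.09 in Wip1+/+ cells, so their order is not fixed. Each genotype had 1 of the 13 probe sets at least 2-fold higher, that of Pidd1, against 1.54% of all probe sets in Wip1+/+ cells and 6.66% in those labelled Wip1-/-. None was at least 2-fold lower, against 1.97% and 4.80%. The SD between probe sets of a gene was 0.37 in Wip1+/+ cells, where 6 of the 13 ratios lay beyond it, against 25% of all. It was 0.62 in cells labelled Wip1-/-, where 3 did, against 29.6% of all. Among probe sets with a mean signal of at least 500 it was 0.18 in Wip1+/+ cells and 0.54 in those labelled Wip1-/-. The 14th probe set, 1 of the 3 of Casp9, was below the floor on every array (16.1 to 26.3) and has no ratio.

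**Figure D1:**
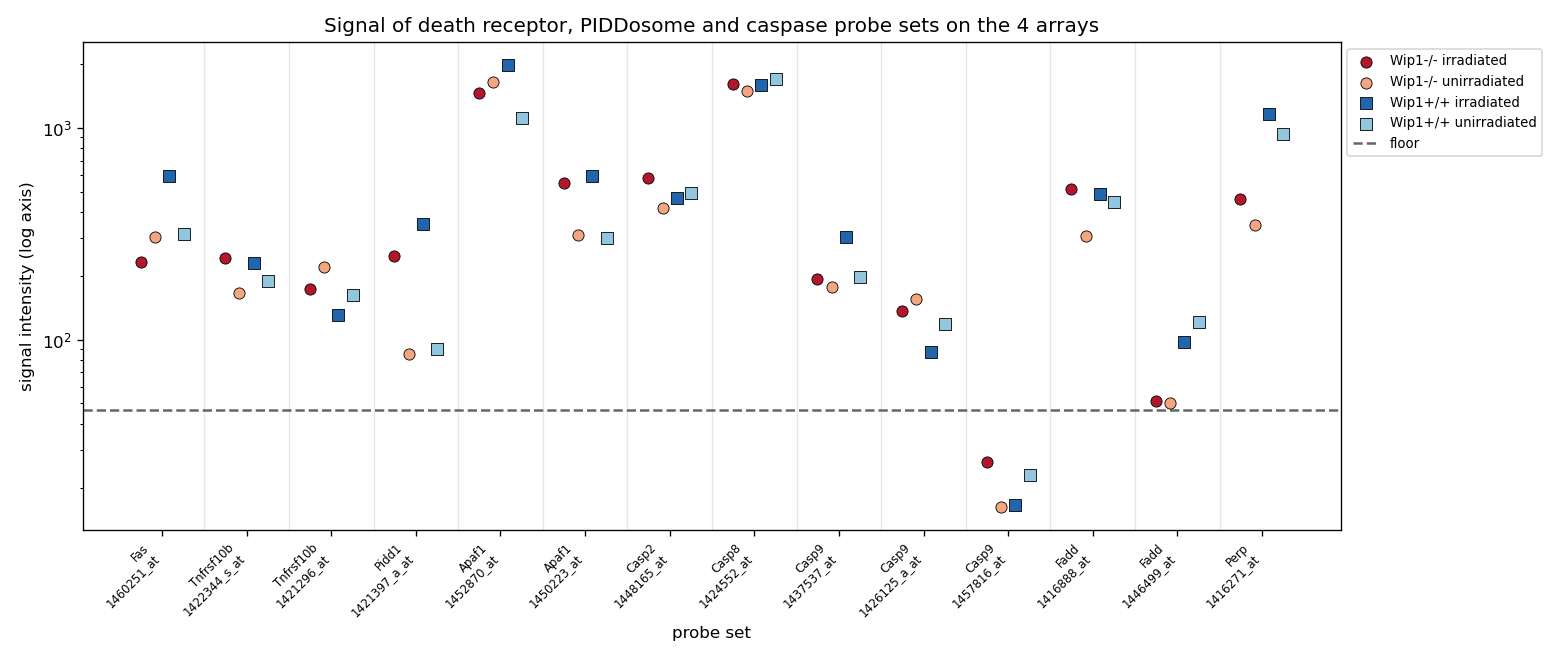
Signal intensity (log axis) of the 14 probe sets on the 4 arrays, 1 point per array, with circles for cells labelled Wip1-/- and squares for Wip1+/+ cells, and the floor of 46.5 as a dashed line. Both irradiated points of Pidd1 lie above both unirradiated ones, and both Wip1+/+ points of Perp lie above both of the cells labelled Wip1-/-. The share of all probe sets with such orders was not counted.

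Among the receptors, Fas had its highest signal on the irradiated Wip1+/+ array alone. Fas (1460251_at; chromosome 19, 34290647 to 34327775, GRCm38.p6) read 595 in irradiated Wip1+/+ cells, against 316 in unirradiated ones. In cells labelled Wip1-/- it read 231 irradiated, against 304 unirradiated. The other 3 arrays lay between 231 and 316. The irradiation ratio was 1.88-fold higher in Wip1+/+ cells, a log2 ratio of 0.91 that exceeded 97.9% of all probe sets and the SD of 0.37. In cells labelled Wip1-/- the log2 ratio was -0.40, within the SD of 0.62, and its unirradiated array is the one that stood apart. The difference between the 2 irradiation ratios was -1.31. Fas was 1 of the 13 probe sets that were at least 1.2-fold apart in opposite directions in the genotypes, against 11.2% of all probe sets.

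The comparison of irradiated genotypes does not use the array that stood apart. There Fas was 2.57-fold lower in cells labelled Wip1-/-, with a log2 ratio of -1.36 that was below 98.8% of all probe sets. Set against the mean log2 signal of both Wip1+/+ arrays, the irradiated array labelled Wip1-/- had a log2 ratio of -0.91, short of 2-fold. That mean includes the unirradiated array, so this value mixes genotype with irradiation. In unirradiated cells the ratio was -0.06, and its sign turned with a scaling on the median of brighter probe sets. The summed signals of macrophage and of interferon-stimulated genes were lower in cells labelled Wip1-/- in both comparisons. Fas was lower by more than the SD in irradiated cells only. The part of those genes in the Fas signal was not tested.

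Tnfrsf10b, the mouse receptor of TRAIL, was measured by 2 probe sets that went opposite ways after irradiation in both genotypes. One (1422344_s_at) read 244 in irradiated cells labelled Wip1-/-, against 167 in unirradiated ones, and 230 in irradiated Wip1+/+ cells, against 189 in unirradiated ones. The other (1421296_at) read 173, against 221, and 131, against 162, in the same order. The first thus read higher on both irradiated arrays than on both unirradiated ones. The second was lower on the irradiated array of each genotype, but both arrays labelled Wip1-/- read above both Wip1+/+ arrays. The share of all probe sets with such orders was not counted, so they cannot be read as a trait of this gene. The irradiation log2 ratios lay within the SD: 0.55 and -0.35 in cells labelled Wip1-/-, and 0.28 and -0.31 in Wip1+/+ cells. The gene lies on chromosome 14, 69767472 to 69784411. Between genotypes its log2 ratios ran from -0.18 to 0.45, with none beyond the SD.

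Fadd, the adaptor that joins both receptors to Casp8, had 1 probe set with values well above the floor and 1 close to it. The first (1416888_at) read 516 in irradiated cells labelled Wip1-/-, against 308 in unirradiated ones, and 488 in irradiated Wip1+/+ cells, against 446. Its unirradiated array labelled Wip1-/- was low and the other 3 lay between 446 and 516, so the ratio of 1.68-fold higher rests on the array that stood apart. The second (1446499_at) read 51.2 and 49.9 in cells labelled Wip1-/-, irradiated and unirradiated, against 97.3 and 122 in Wip1+/+ cells. Both Wip1+/+ values lay above both others, an order not counted over all probe sets, and those of the cells labelled Wip1-/- were just over the floor. It was 2.44-fold lower in unirradiated cells labelled Wip1-/- and 1.90-fold lower in irradiated ones, while the first probe set had log2 ratios of -0.53 and 0.08. The gene lies on chromosome 7, 144578323 to 144582441.

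Casp8, the initiator caspase of death receptors, was the most even of the group. It (1424552_at; chromosome 1, 58795233 to 58847503) read 1610 and 1491 in cells labelled Wip1-/-, irradiated and unirradiated, against 1599 and 1707 in Wip1+/+ cells. The highest array was 1.15 times the lowest, the narrowest range of the 13 probe sets. All of its 4 log2 ratios lay between -0.20 and 0.11.

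**Figure D2:**
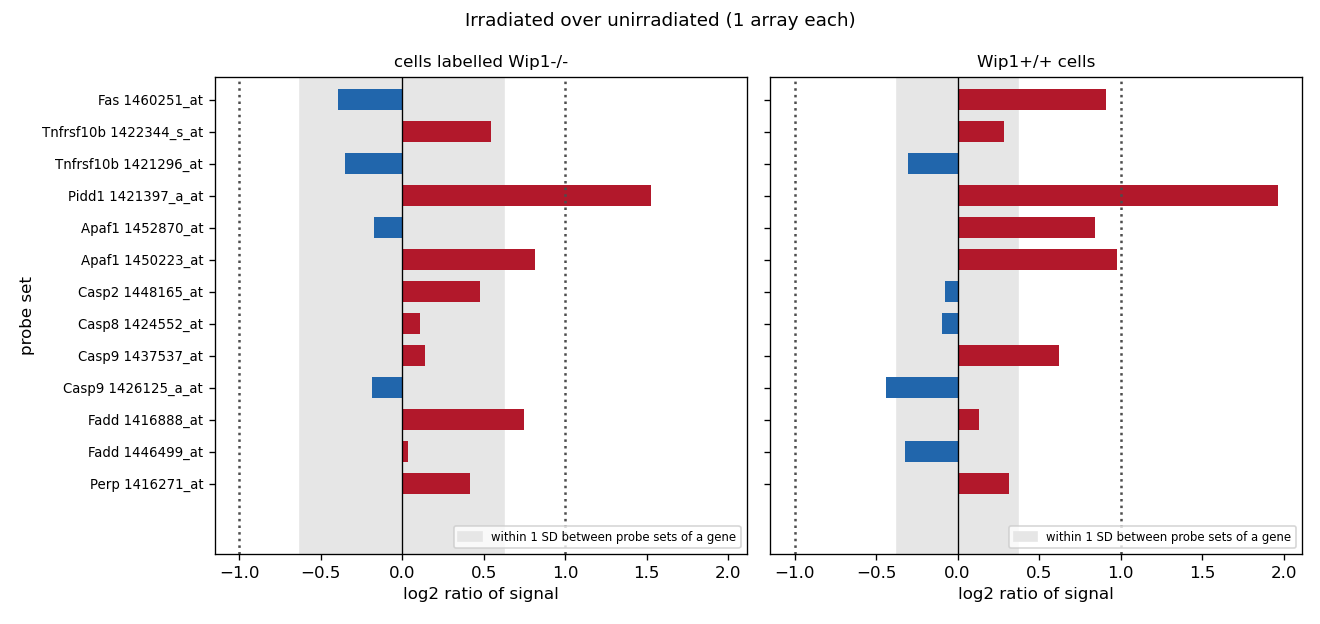
Log2 ratio of irradiated over unirradiated signal for the 13 probe sets that passed the filter, in cells labelled Wip1-/- (left) and Wip1+/+ cells (right), with 1 SD between probe sets of a gene in grey and 2-fold as dotted lines. Pidd1 passes 2-fold in both panels, and Fas points to opposite sides.

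Pidd1, the scaffold of the PIDDosome, had the highest irradiation ratio of the group in both genotypes. Its single probe set (1421397_a_at; chromosome 7, 141438113 to 141447565) read 248 in irradiated cells labelled Wip1-/-, against 85.9 in unirradiated ones. In Wip1+/+ cells it read 352, against 90.3. Both irradiated arrays stood above both unirradiated ones, and the share of all probe sets for which this holds was not counted. As deposited the unirradiated values nearly coincided, with a genotype log2 ratio of -0.07, which was -0.31 after quantile normalization. The irradiation ratio in cells labelled Wip1-/- uses the array that stood apart. The log2 ratio of 1.96 in Wip1+/+ cells exceeded 99.9% of all probe sets, and that of 1.53 in cells labelled Wip1-/- exceeded 98.3%. Both were more than 2 SD between probe sets. In irradiated cells Pidd1 was 1.42-fold lower in those labelled Wip1-/-, a log2 ratio of -0.51 beyond the SD of 0.41. Set against the mean of both Wip1+/+ arrays the sign turned, to 0.47. The mean includes the unirradiated array, so this value mixes genotype with irradiation. Since no second probe set of this gene was on the array under its symbol, the genotype difference has no second measurement.

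The partners of Pidd1 did not share its pattern. Casp2, the caspase it activates (1448165_at; chromosome 6, 42264902 to 42282508), read 579 in irradiated cells labelled Wip1-/-, against 416 in unirradiated ones. In Wip1+/+ cells it read 468, against 493. No ratio lay beyond the SD. Cradd, the adaptor between them, was read by 1 probe set with 63.4 in irradiated cells labelled Wip1-/-, against 142 in unirradiated ones, and with 153 in irradiated Wip1+/+ cells, against 166. It was low on the irradiated array labelled Wip1-/- alone, by 2.25-fold against the unirradiated array and 2.42-fold against irradiated Wip1+/+ cells.

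Apaf1, the core of the apoptosome (chromosome 10, 90989311 to 91082743), had 2 probe sets that went the same way in Wip1+/+ cells and apart in cells labelled Wip1-/-. In Wip1+/+ cells one (1450223_at) read 595 irradiated, against 302 unirradiated, and the other (1452870_at) 1988, against 1108. They were 1.97-fold and 1.80-fold higher, log2 ratios of 0.98 and 0.84 beyond the SD. In cells labelled Wip1-/- the first read 550 irradiated, against 313 unirradiated, and the second 1460, against 1642. By the first the arrays split by irradiation, and by the second only the Wip1+/+ arrays did. Such orders were not counted over all probe sets. The log2 ratios of 0.81 and -0.17 were 0.98 apart, against a median gap of 0.54 over the 3079 genes with 2 such probe sets. In irradiated cells the second was 1.36-fold lower in those labelled Wip1-/-, a log2 ratio of -0.45 beyond the SD of 0.41, and the first had -0.11. Set against the mean of both Wip1+/+ arrays, irradiated and unirradiated, these were -0.02 and 0.38, values that mix genotype with irradiation. Pidd1 and the first Apaf1 probe set were the 2 of 13 that were at least 1.5-fold higher after irradiation in both genotypes, against 1.46% of all probe sets.

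Casp9, the caspase of the apoptosome (chromosome 4, 141793612 to 141815978), had 2 probe sets above the floor that went opposite ways in all 4 comparisons. One (1437537_at) read 194 in irradiated cells labelled Wip1-/-, against 176 in unirradiated ones, and 304 in irradiated Wip1+/+ cells, against 198. The other (1426125_a_at) read 137, against 155, and 87.4, against 119, in the same order. The first was highest and the second lowest on the irradiated Wip1+/+ array, with irradiation log2 ratios of 0.62 and -0.44, both beyond the SD. Both probe sets have means under 500, and no SD was computed for such probe sets alone. In irradiated cells the genotype ratios were -0.65 and 0.65, so no direction can be given for the gene. Probe sets of one gene often disagreed in sign here: between 42.0% and 47.6% of the 3079 genes with 2 of them did, depending on the comparison.

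**Figure D3:**
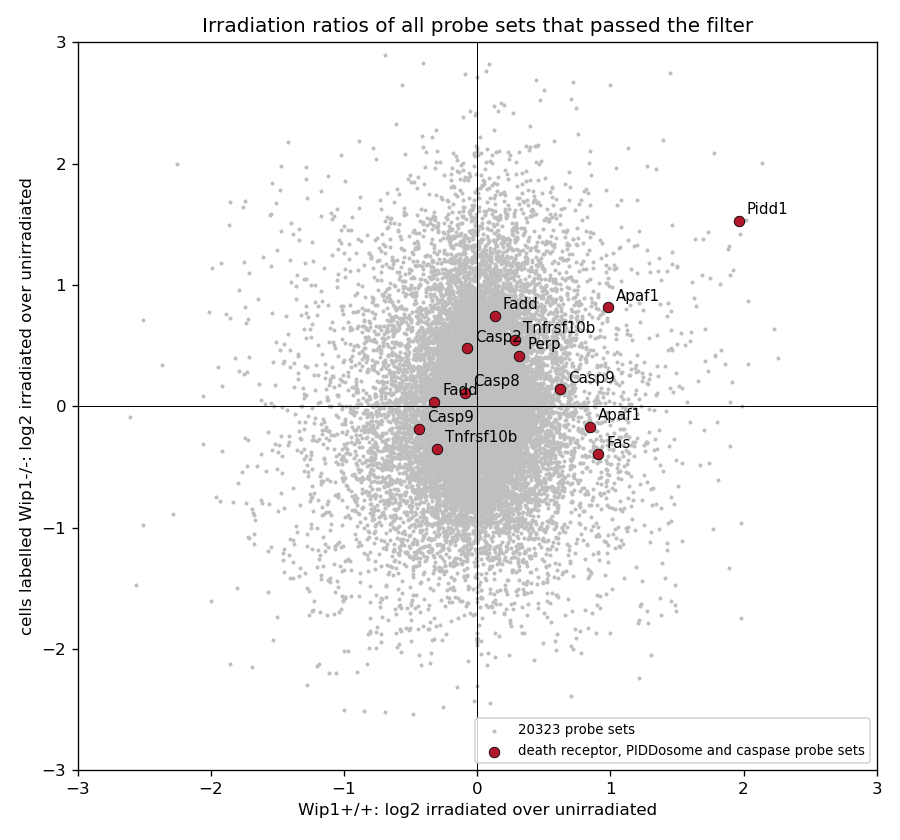
Log2 ratio of irradiated over unirradiated signal in Wip1+/+ cells (x axis) and in cells labelled Wip1-/- (y axis), with 20323 probe sets in grey and the 13 that passed the filter in red. Pidd1 and 1 probe set of Apaf1 stand apart in the upper right, and Fas and the other Apaf1 probe set lie to the right near or below 0 on the y axis; 4 probe sets lie outside the axes.

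Between genotypes, Perp was the member at least 2-fold lower in cells labelled Wip1-/- under both conditions. Perp (1416271_at; chromosome 10, 18845071 to 18857073) read 463 irradiated and 347 unirradiated in cells labelled Wip1-/-, against 1157 and 931 in Wip1+/+ cells. The groups of 2 arrays did not overlap, and the share of all probe sets for which this holds was not counted. It was 2.50-fold lower in irradiated and 2.68-fold lower in unirradiated cells labelled Wip1-/-, and 1.12% of all probe sets were at least 2-fold lower in both comparisons. The irradiated comparison does not use the array that stood apart. After irradiation Perp was 1.33-fold and 1.24-fold higher in cells labelled Wip1-/- and in Wip1+/+ cells, within the pooled SD of each. Its mean signal was 724, and among probe sets with means of at least 500 the SDs were 0.54 and 0.18. Its log2 ratio of 0.31 in Wip1+/+ cells lay beyond the latter, and that of 0.42 in cells labelled Wip1-/- within the former. The summed signal of 16 macrophage markers and that of 12 interferon-stimulated genes were lower on the same arrays, and their part in the Perp signal was not tested.

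Other desmosome and epithelial genes did not share this direction as groups. Of the 8 desmosome genes, 5 passed the filter, of which 3 were higher and 2 lower in irradiated cells, and 4 higher and 1 lower in unirradiated ones. Dsp, desmoplakin, read 333 and 556 in cells labelled Wip1-/-, irradiated and unirradiated, against 165 and 151 in Wip1+/+ cells. Jup, plakoglobin, read 1384 and 1816, against 950 and 932. Both were thus higher on both arrays labelled Wip1-/-, on which Perp was lower. Pkp4 had genotype log2 ratios of -0.03 irradiated and -0.50 unirradiated by its brightest probe set, and -0.31 and 0.94 by its other. Pkp2 had 0.06 and 0.26 by its brightest. Another bright probe set of Pkp2 had -0.01 irradiated and was 2.11-fold lower in unirradiated cells labelled Wip1-/-, on the array that stood apart. Between genotypes Pkp1, a plakophilin, was at least 2.42-fold higher in unirradiated and 1.24-fold lower in irradiated cells labelled Wip1-/-. After irradiation of Wip1+/+ cells it was at least 4.68-fold higher, where the unirradiated signal was under the floor. The 12 epithelial markers, keratins and junction genes, summed to 2354 and 2529 in cells labelled Wip1-/-, against 1838 and 1748. At or under the floor were 6 and 2 of them in cells labelled Wip1-/-, irradiated and unirradiated, and 5 on each Wip1+/+ array. Of the 6 that passed the filter, 5 were higher and 1 lower in cells labelled Wip1-/- under each condition, but the lower one differed. Epcam had a log2 ratio of -0.77 unirradiated and 2.07 irradiated. Grhl2 had 0.10 unirradiated and -0.94 irradiated. Both irradiated values are bounds, with 1 array under the floor.

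Over the group as a whole, 6 probe sets had a genotype ratio above 1 and 7 below in irradiated cells, with a median log2 ratio of -0.11, against 51.0% of all probe sets above 1 and a median of 0.01 over the 20279 with a ratio. Set against the mean of both Wip1+/+ arrays, the median of the members was 0.15. That value mixes genotype with irradiation, since the mean includes the unirradiated array. In unirradiated cells 4 were above and 9 below, with a median of -0.17, against 51.3% above 1 and a median of 0.02 over 20306. Those at least 2-fold lower were 2 of 13 in irradiated cells, Fas and Perp, against 2.76% of all probe sets. They were 2 of 13 in unirradiated cells, Perp and the dim probe set of Fadd, against 7.72% of all. None was at least 2-fold higher in either, against 2.71% and 5.57%. Probe sets of a gene had SDs of 0.41 and 0.65 in these comparisons. The SD was exceeded by 7 of 13 ratios in irradiated and by 2 of 13 in unirradiated cells, against 25.8% and 29.8% of all. Among probe sets with a mean signal of at least 500 the SDs were 0.23 and 0.55. The comparisons share arrays, so their values are not independent. The irradiated Wip1+/+ array was the highest of the 4 in 6 of the 13 probe sets. The array of unirradiated cells labelled Wip1-/-, which stood apart, was the lowest in 8. These orders were not counted over all probe sets, so they cannot be read as a trait of the members.

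**Figure D4:**
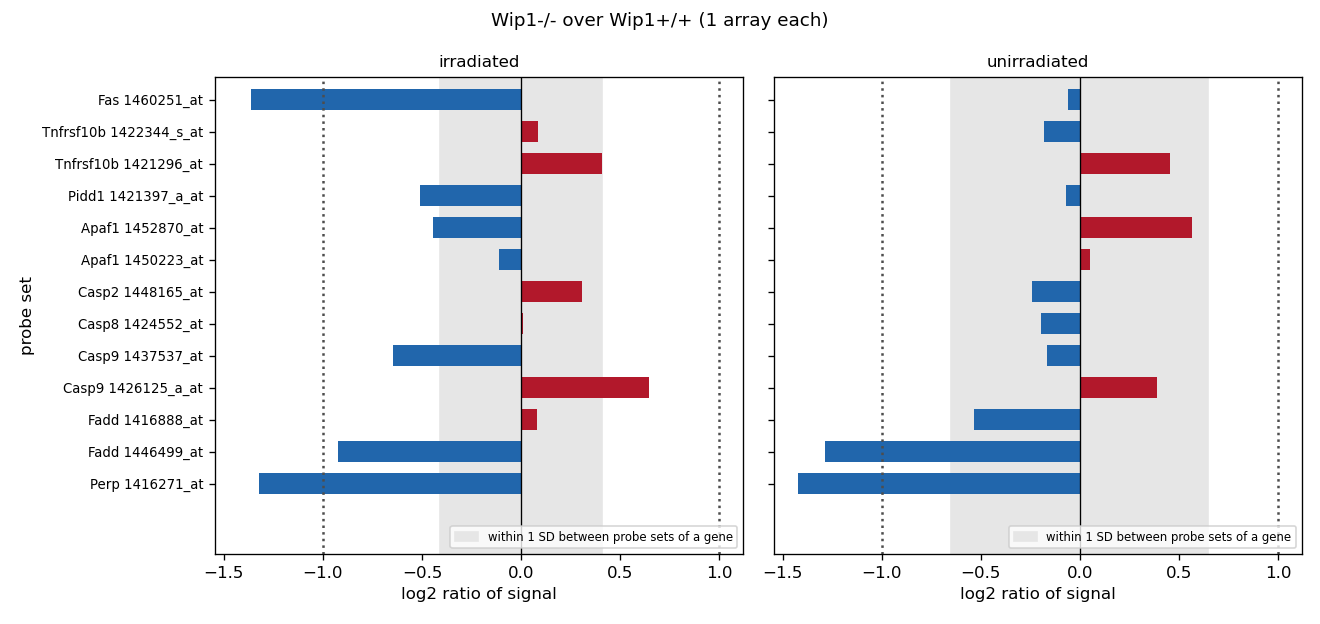
Log2 ratio of signal in cells labelled Wip1-/- over Wip1+/+ cells for the 13 probe sets that passed the filter, in irradiated (left) and unirradiated cells (right), with 1 SD between probe sets of a gene in grey and 2-fold as dotted lines. Perp passes 2-fold in both panels and Fas only in the irradiated one.

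The rest of the pathway was read on 45 of 50 further genes, of which 37 passed the filter by their probe set with the highest mean. After irradiation 20 were higher and 17 lower in each genotype, the medians being 0.03 in cells labelled Wip1-/- and 0.06 in Wip1+/+ cells, against -0.03 and 0.01 over 11543 genes. At least 2-fold higher were 2 of 37 in cells labelled Wip1-/-, against 5.70% of genes, and 1 of 37 in Wip1+/+ cells, against 1.58%. At least 2-fold lower were 1 and 0, against 4.61% and 1.5%. None of the ligands on the array passed the filter: the probe sets of Fasl, Tnfsf10, Tnf and Lta all had means under it. Fasl, the ligand of Fas, read at most 78.7 on any array.

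Among other receptors, Tnfrsf21, a death domain receptor, was higher in cells labelled Wip1-/- by both of its probe sets. The one with the highest mean read 591 and 829, irradiated and unirradiated, against 242 and 211 in Wip1+/+ cells, 2.44-fold and 3.93-fold higher. The other was 2.16-fold and 1.90-fold higher. Ngfr, the p75 neurotrophin receptor, was 2.55-fold higher in irradiated cells labelled Wip1-/-, while a dimmer probe set was at least 2.27-fold lower. Tnfrsf1a, a receptor of TNF, had log2 ratios between -0.44 and 0.42.

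Among adaptors and inhibitors, Casp8ap2, a binding partner of Casp8, read 609 and 1115 in cells labelled Wip1-/-, irradiated and unirradiated, against 712 and 475 in Wip1+/+ cells. It was 2.35-fold higher in unirradiated cells labelled Wip1-/-, on the array that stood apart, and 1.17-fold lower in irradiated ones. Faim2, an inhibitor of Fas signalling, was at least 2.18-fold higher after irradiation of Wip1+/+ cells, where the unirradiated signal was under the floor. Cflar, the FLIP inhibitor of Casp8, had 4 probe sets over the filter: the one with the highest mean had irradiation log2 ratios of 0.30 in cells labelled Wip1-/- and -0.11 in Wip1+/+ cells, and 2 dim ones had -1.87 and -2.03 in cells labelled Wip1-/- as bounds. Xiap, which blocks caspases, had -0.03 and -0.01 by its highest probe set and 1.39 and -0.26 by another.

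Among effectors and substrates, Casp6 read 1018 and 1342 in cells labelled Wip1-/-, irradiated and unirradiated, against 862 and 821 in Wip1+/+ cells. Its irradiation log2 ratios were -0.40 and 0.07. Casp4, an inflammatory caspase, was under the floor on both arrays labelled Wip1-/- and read 128 irradiated and 97.7 unirradiated in Wip1+/+ cells, so that it was at least 2.74-fold and 2.10-fold lower; its mean was under the filter. Dffb, the nuclease of DNA fragmentation, was at least 2.76-fold higher after irradiation in cells labelled Wip1-/- by the probe set with the highest mean. By its other probe set it was at least 1.32-fold higher. Both were under the floor on the array that stood apart. Gsn, gelsolin, was 3.06-fold higher in the same comparison by the probe set with the highest mean. That probe set read 9840 on the array that stood apart and 28581 to 30115 on the other 3. Another bright probe set of Gsn had a log2 ratio of -0.05.

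Genes that p53 is known to activate were read for setting beside the members. Of 10 such genes 8 were measured, each by the brightest probe set on average. After irradiation 7 of 8 were higher in cells labelled Wip1-/-, with a median log2 ratio of 0.86, against 47.4% of 11543 genes. In Wip1+/+ cells 8 of 8 were, with a median of 0.70, against 52.3%. The ratios in cells labelled Wip1-/- use the unirradiated array that stood apart. On it 3 of the 8 were higher and 5 lower than in unirradiated Wip1+/+ cells, with a median of -0.44. The 2 medians after irradiation thus do not show a stronger response in either genotype. Between irradiated genotypes all 8 had a ratio below 1, with a median of -0.11, against 50.7% of genes. Of the 7 other probe sets of these genes over the filter, 5 had a ratio above 1 in that comparison, among them those of Cdkn1a, the cell cycle inhibitor p21, with a log2 ratio of 0.95, and Mdm2, the ubiquitin ligase of p53, with 0.12. No direction between irradiated genotypes can thus be given for the list. The list was chosen with earlier results of these data known. Bbc3, the BH3-only protein Puma, read 522 in irradiated cells labelled Wip1-/-, against 228 in unirradiated ones, and 584 in irradiated Wip1+/+ cells, against 348. Unlike the single probe set of Fas, that of Bbc3 was thus higher after irradiation in both genotypes.

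Genes with the nearest pattern over the 4 arrays were sought for 3 members among 8818 genes above the floor on all arrays with a mean signal of at least 200, by the Euclidean distance of centred log2 signals. For Fas these were Eif2ak2, a kinase activated by double-stranded RNA, at a distance of 0.27, Csad at 0.34 and Dmpk at 0.36. Eif2ak2 read 502 and 738 in cells labelled Wip1-/-, irradiated and unirradiated, against 1202 and 809 in Wip1+/+ cells. For Pidd1 these were Zfp518a at 0.47, 1700007K13Rik at 0.55 and Gadd45a, a growth arrest gene, at 0.72. Gadd45a read 595 and 263, against 542 and 222. For the Apaf1 probe set with the highest mean they were Pkig, a protein kinase A inhibitor, at 0.03, Pld1, a phospholipase, at 0.04 and Senp7, a SUMO protease, at 0.06. The distances were not scaled for the range of a gene, so they cannot be compared between members. Pidd1 spanned 4.10-fold over the 4 arrays, and that Apaf1 probe set 1.80-fold. Over 4 arrays such likeness is a description of these arrays.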

How the data were processed

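The 4 Affymetrix Mouse Genome 430 2.0 arrays hold 45101 probe sets, 64 of them controls. The authors deposited linear signal intensity, 1 value per probe set and array, made with GCOS per the submitters' processing notes; its version, background step and scaling target are unstated in the sources used here. The trimmed mean of each column was 500 after leaving out 2% at each end, so the values were used as deposited. Gene names came from the platform annotation, which gave 34945 probe sets 1 symbol. Values under 46.5, the 40th percentile, were set to that floor before log2, and the 20323 probe sets with a mean of at least 67.98, the median, were compared. A ratio against the floor is a bound, written with "at least". Comparisons are log2 ratios between 2 arrays, counted at 2-fold, with no p-value, since each group has 1 array. The number of arrays limits the precision. Named genes were every member probe set, pathway genes at least 2-fold apart or the largest of their list, and the 3 nearest genes of Fas, Pidd1 and Apaf1; some of these are left unprinted, and further examples were chosen with their values in view. Members and lists were chosen with earlier results of these data known. The lists were those of ligands, other receptors, adaptors, other caspases, inhibitors, mitochondrial factors, and substrates and nucleases, with desmosome, p53, fibroblast, macrophage, epithelial, endothelial and interferon genes. Mitochondrial factors had medians of 0.00 after irradiation in both genotypes, and the 3 measured endothelial markers had medians of 0.02 and 0.32 between irradiated and unirradiated genotypes. These 3 went different ways. In cells labelled Wip1-/- Emcn was 2.07-fold lower irradiated and 4.56-fold lower unirradiated. Kdr was 1.01-fold and 2.04-fold higher, and Cdh5 at least 1.75-fold and 1.25-fold higher, in the same order. Scripts were tested on simulated data. R 4.3.3 with limma 3.58.1 and Python 3.11.15 with pandas 2.3.3 were used.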

Additional observations from a re-analysis of the deposited data

Results flagged for a closer look

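Fas was singled out because its irradiation ratios pointed to opposite sides in the genotypes, each by at least 1.2-fold. The difference of the log2 ratios, cells labelled Wip1-/- minus Wip1+/+ cells, was -1.31. It was not tested, since each group has 1 array, and 11.2% of all probe sets met the same criterion.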

How the results depend on the processing

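The 10 alternatives set out at the start took another normalization (quantile, cyclic loess, or a scaling on the median of brighter probe sets), a lower floor or none, a filter at the 67th percentile or none, the removal of probe sets ending in _x_at or _s_at, or 1 value per gene as the brightest probe set or as the median. Over them the member median ran from 0.06 to 0.42 after irradiation of cells labelled Wip1-/- and from 0.09 to 0.31 in Wip1+/+ cells. It ran from -0.45 to -0.11 between irradiated and from -0.20 to -0.07 between unirradiated genotypes, and the median difference of the irradiation ratios from 0.03 to 0.10. No median turned sign or moved by the SD between probe sets of a gene, and counts at 2-fold stayed within 1.5 times, with these exceptions. The filter at the 67th percentile removed Pidd1, so the count at least 2-fold higher after irradiation was 0 in both genotypes. The count at least 2-fold lower in unirradiated cells labelled Wip1-/- was 1 under that filter and with either value per gene, since the dim probe set of Fadd then dropped out or was merged. Of 273 recomputed member ratios, 5 turned sign, of which 2 did under that scaling: Fas in unirradiated genotypes (0.00) and the dim Fadd probe set after irradiation in cells labelled Wip1-/- (-0.04). The other 3, chosen after seeing the data, set the irradiated array labelled Wip1-/- against the mean of both Wip1+/+ arrays: Pidd1 (0.47), Apaf1 (0.38) and Casp8 (-0.04). The member median was then 0.15, the opposite sign. Because that mean includes the unirradiated array, these values mix genotype with irradiation. The irradiation comparison of cells labelled Wip1-/- cannot be made without the array that stood apart. No paired analysis was possible because the labels give no replicate numbers and each group has 1 array; an additive fit of genotype and irradiation over the 4 arrays was not run.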
